A study of Rattus norvegicus with 27 samples.

Results

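The genes described here are 9 transcription factors that mark where in the nervous system a neuron belongs: Isl1, Isl2, Lhx4 and Hoxd10 of spinal and motor neurons, and Bhlhe22, Neurod1, Dlx1, Dlx5 and Fezf2, which are known mainly for their roles in the forebrain. They were taken as all probe sets that the platform annotation gives to one of these symbols alone. Each gene had 1 such probe set, so the 9 genes gave 9 of the 12913 probe sets tested. The genes were selected on measured values of these arrays, namely that 1 sham array stood apart in genes of this kind and that Bhlhe22 was lower after transection, so both are given as a description.

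The study measured gene expression in motor neurons that supply the tail muscles, from adult male Wistar rats. Spi-21 (8 arrays) and Spi-60 (8 arrays) are samples taken 21 and 60 days after the spinal cord was cut at S2 and 1 to 2 mm of tissue was removed. ShamC-21 (6 arrays) and ShamC-60 (5 arrays) are samples from the same days after an operation that opened the vertebrae and left the dura intact. All rats received Fluorogold, a retrograde tracer, 5 to 7 days before the neurons were taken, and 100 to 200 labelled neurons per sample, by the sample labels, were laser-dissected from slices of 10 µm. The series text gives 50 as the lower number. The RNA went through 2 rounds of amplification before hybridisation to Affymetrix rat arrays. The labels number the samples as biological replicates without tying them to animals or batches, so the p-values reflect only how these samples vary.

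Identity factors act in combination: a motor neuron is specified in the embryo by LIM-homeodomain factors such as Isl1, Isl2 and Lhx4, and its level along the cord by Hox genes, of which Hoxd10 belongs to the lumbar and sacral segments. Proneural and homeodomain factors play the same part in the forebrain, where Neurod1 and Fezf2 act in excitatory neurons of the cortex, Dlx1 and Dlx5 in inhibitory neurons, and Bhlhe22 in cortical area patterning and also in interneurons of the dorsal horn. Several of these genes are strongly used during development and less in the adult. Values are log2 signals after RMA, in which a probe set with little transcript keeps a background signal, and the array medians lay between 6.31 and 6.41. A small spread therefore does not show whether a transcript was present. Because each probe set has its own affinity, levels were compared between arrays and never between genes.

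RefSeq promoter windows of the build GRCr8, from 250 bases before to 50 bases after the gene start, were found for 7 of the 9 genes. The 4 shown belong to genes that lay outside the range of the other arrays in ShamC-60 replicate 4. Capitals mark each CANNTG, the core letters bound by basic helix-loop-helix factors such as Neurod1 and Bhlhe22, and each TAAT or ATTA, the core letters bound by homeodomain factors such as the Dlx, Lhx and Hox proteins. Both strands were searched (CANNTG reads as CANNTG on the other strand, and ATTA is TAAT on the other strand), and no matches overlapped.
Hoxd10 (chr3:80001697-80001996, plus strand): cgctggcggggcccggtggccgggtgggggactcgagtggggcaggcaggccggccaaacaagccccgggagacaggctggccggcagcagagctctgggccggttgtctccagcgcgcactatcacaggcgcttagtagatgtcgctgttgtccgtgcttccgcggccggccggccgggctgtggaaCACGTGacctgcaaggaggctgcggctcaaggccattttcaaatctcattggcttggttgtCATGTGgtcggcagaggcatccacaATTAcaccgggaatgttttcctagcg
Neurod1 (chr3:84770405-84770704, minus strand): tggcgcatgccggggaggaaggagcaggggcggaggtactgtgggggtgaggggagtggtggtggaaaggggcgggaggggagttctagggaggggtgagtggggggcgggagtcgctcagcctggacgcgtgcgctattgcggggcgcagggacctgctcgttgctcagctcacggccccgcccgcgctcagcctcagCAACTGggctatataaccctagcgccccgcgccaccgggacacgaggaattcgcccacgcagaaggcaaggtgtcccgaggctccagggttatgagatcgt
Dlx1 (chr3:76763614-76763913, plus strand): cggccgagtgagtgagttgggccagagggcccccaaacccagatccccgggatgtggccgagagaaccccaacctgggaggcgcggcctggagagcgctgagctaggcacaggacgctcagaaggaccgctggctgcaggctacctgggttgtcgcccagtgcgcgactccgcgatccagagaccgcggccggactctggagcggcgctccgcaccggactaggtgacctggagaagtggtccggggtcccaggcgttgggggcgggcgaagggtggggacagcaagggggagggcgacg
Fezf2 (chr15:15203943-15204242, plus strand): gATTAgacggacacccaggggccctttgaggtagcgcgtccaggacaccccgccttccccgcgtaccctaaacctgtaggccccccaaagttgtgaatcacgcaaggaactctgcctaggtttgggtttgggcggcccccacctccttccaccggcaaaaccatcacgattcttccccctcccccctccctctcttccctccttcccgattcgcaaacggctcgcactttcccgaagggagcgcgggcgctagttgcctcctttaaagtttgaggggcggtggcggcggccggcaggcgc
The Hoxd10 window held 2 CANNTG, of which the distal one (CACGTG) began 62 bases before the gene start and the other (CATGTG) 1 base before it. It also held an ATTA at base 25 of the transcript. The Neurod1 window held 1 match to it, CAACTG, beginning 51 bases before the start,, the Fezf2 window 1 ATTA beginning 249 bases before its start and the Dlx1 window 0 of either. Of 33469 RefSeq promoter windows of this length, 72.1% held CANNTG and 60.6% held TAAT or ATTA, so these letters are common.

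One array decided the range of 6 of the 9 genes. In the array labelled ShamC-60 replicate 4, Bhlhe22, Neurod1, Dlx1, Dlx5 and Fezf2 were above every one of the other 26 arrays, Hoxd10 was below every one, and Isl1, Isl2 and Lhx4 were inside the range. Of all probe sets, 11.7% were highest and 12% lowest in this array. These values chose the genes and carry no test.

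**Figure D1:**
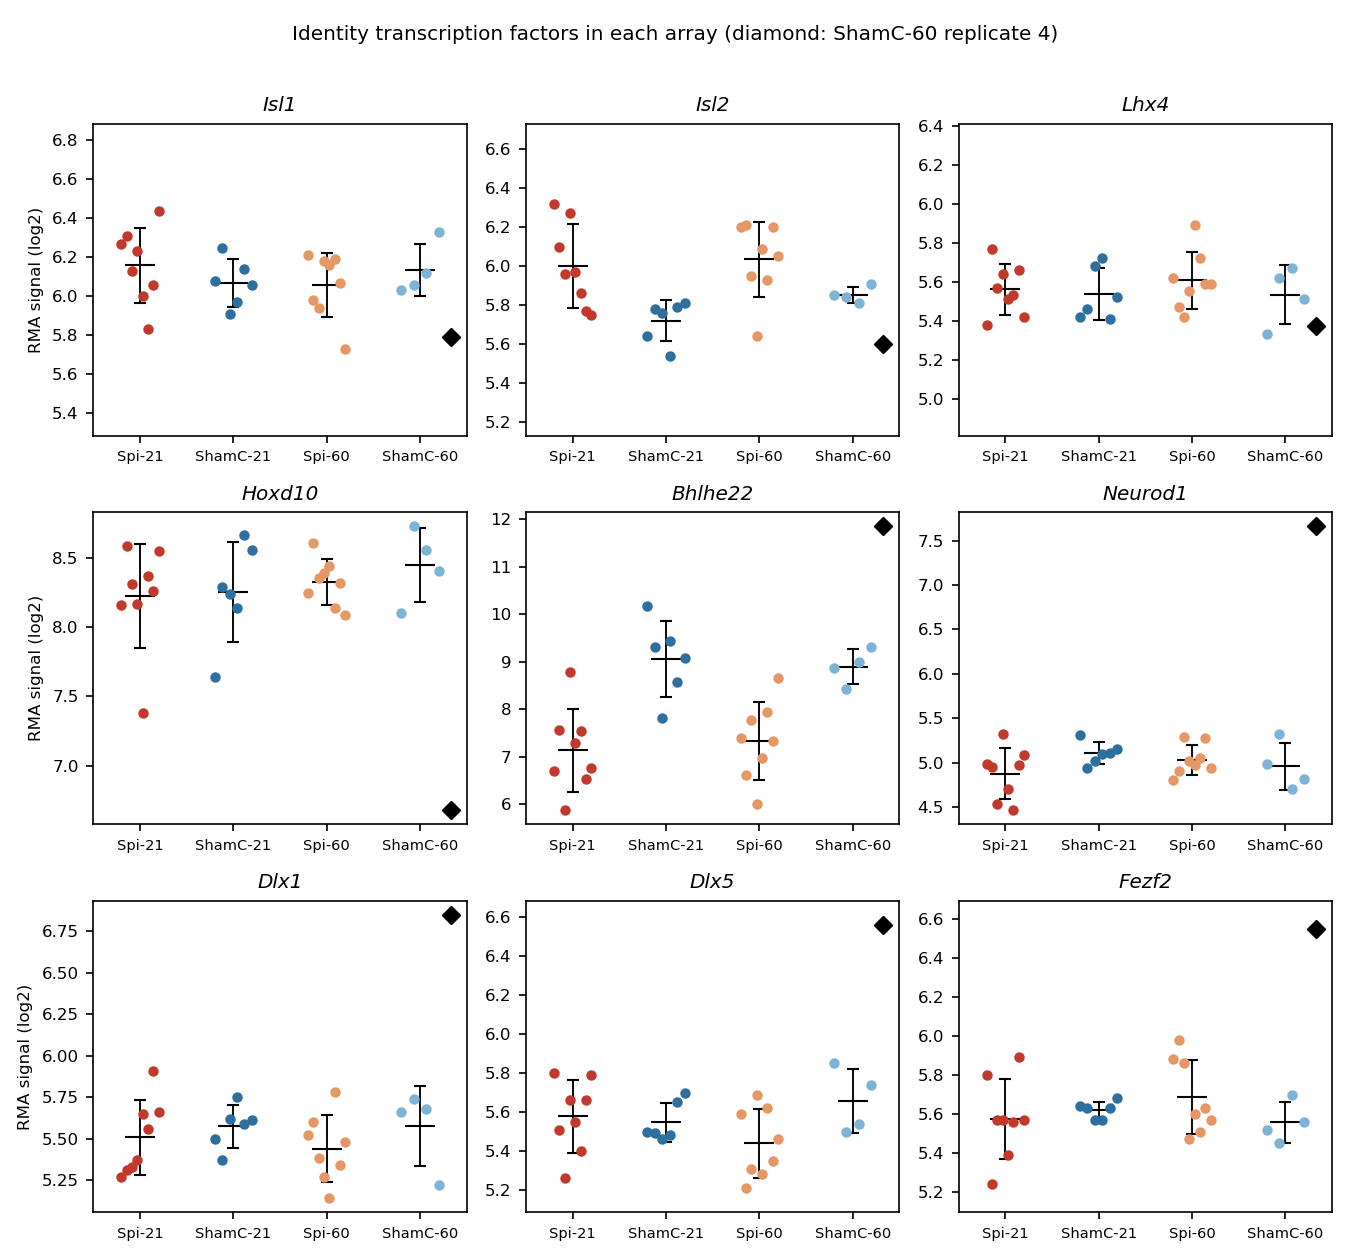
Log2 RMA signal (vertical axis, its own scale in each panel) of the 9 identity factors in each array, by group (horizontal axis); dots are arrays, bars are mean ± SD without ShamC-60 replicate 4, and black diamonds are that array. The diamond lies above all dots for Bhlhe22, Neurod1, Dlx1, Dlx5 and Fezf2 and below them for Hoxd10, while Bhlhe22 is the gene whose transected and sham dots lie farthest apart.

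Neurod1, a proneural factor kept on in hippocampal granule cells and some cortical neurons, had a log2 signal of 7.66 in replicate 4, against a lowest, median and highest value of 4.47, 4.99 and 5.32 in the other 26 arrays. That is 6.37-fold above the median and 5.08-fold above the highest array. The other 26 arrays spanned less than the gap between them and replicate 4. In the other ShamC-60 arrays Neurod1 was 4.99, 5.32, 4.71 and 4.82.

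Bhlhe22, a repressor used in cortical projection neurons and dorsal horn interneurons, was 11.85 in replicate 4, against 5.88, 7.79 and 10.17 (lowest, median and highest) in the other 26 arrays. It lay 16.7-fold above their median and 3.19-fold above the highest of them, ShamC-21 replicate 1. Unlike Neurod1, Bhlhe22 already varied widely among the other arrays.

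Dlx1 and Dlx5, homeodomain factors of inhibitory neurons from the ganglionic eminences, were 6.85 and 6.56 in replicate 4. In the other 26 arrays Dlx1 lay between 5.14 and 5.91 with a median of 5.54, and Dlx5 lay between 5.21 and 5.85 with a median of 5.53. Replicate 4 was 1.92-fold above the highest other array for Dlx1 and 1.64-fold for Dlx5. Fezf2, a zinc-finger factor that specifies subcerebral projection neurons of cortical layer 5, was 6.55 in replicate 4, against 5.24, 5.57 and 5.98 (lowest, median and highest) in the other 26. These 3 genes exceeded the other arrays by less than 1 on the log2 scale, a gap that 1.28% of all probe sets passed upward in replicate 4.

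Hoxd10, the lumbosacral Hox gene, was 6.68 in replicate 4, against 7.38, 8.31 and 8.73 (lowest, median and highest) in the other 26 arrays. It lay 3.11-fold under the median and 1.63-fold under the lowest, Spi-21 replicate 5. In the other ShamC-60 arrays it was 8.10, 8.73, 8.56 and 8.41, so replicate 4 was the low one of its group.

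Isl1, a LIM-homeodomain factor needed for motor neuron birth, was 5.79 in replicate 4, against 5.73, 6.10 and 6.44 in the other 26. Isl2, its close relative, was 5.60 in replicate 4, against 5.54, 5.88 and 6.32. Lhx4, which acts with Lhx3 in motor neurons whose axons leave ventrally, was 5.37 in replicate 4, against 5.33, 5.56 and 5.89. All 3 lay near the low end without leaving the range.

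No other array held more than 1 of the 9 genes at its highest value or more than 1 at its lowest. Among the other 26 arrays, 0.728% to 8.92% of all probe sets were highest in a given array and 1.36% to 8.94% were lowest. The median correlation of replicate 4 with the other arrays, over probe sets, was 0.897, against 0.939 to 0.967 for the other 26.

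Lists of related genes were read beside the 9, with the 9 themselves left out. The lists were chosen with earlier results of these data known, so their counts in replicate 4 are a description and carry no test. Of 17 other forebrain transcription factors, 7 were above all 26 arrays in replicate 4 and 0 below, against 12.1% and 13.1% of all 9769 genes. Lhx2, a LIM-homeodomain factor of the developing cortex, was 10.0 in replicate 4 and at most 5.89 in the others. Bcl11b, which acts downstream of Fezf2 in subcerebral neurons and also in striatal neurons, was 9.90 in replicate 4 and at most 6.65 elsewhere. Emx2, a cortical patterning factor, was 8.38 in replicate 4 and at most 5.17 elsewhere. Mef2c (11.0 in replicate 4, at most 8.33 elsewhere), Bcl11a (8.90, at most 6.28 elsewhere) and Satb1 (9.32, at most 8.59 elsewhere), transcription factors of cortical neurons, were also above the range, as was Nr4a2 by 0.08. Of 27 other forebrain neuron markers, 12 were above all 26 arrays and 1, Cck, was below them. Gad1, an enzyme that makes GABA, was 11.8 in replicate 4 and at most 9.83 elsewhere. Gad2, also an enzyme that makes GABA, was 5.43 in replicate 4 and the GABA transporter Slc32a1 7.46. Both were inside the range of the other arrays (at most 5.62 and 7.88).

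Motor neuron effector genes ran the other way in that array. Of 17 motor neuron effector genes 14 were below all 26 arrays and 0 above, with a median difference from the other arrays' median of -1.92. Prph, the intermediate filament peripherin, was 9.78 in replicate 4 and at least 12.5 elsewhere. Uts2, the peptide urotensin II, was 9.44 in replicate 4 and at least 11.9 elsewhere. Slc18a3, the vesicular acetylcholine transporter, was 5.43 in replicate 4 and at least 6.86 elsewhere. Of 11 motor neuron transcription factors other than Isl1, Isl2 and Lhx4, 3 were below the range (Irx3 with 6.57 in replicate 4 and at least 7.92 elsewhere, Runx1 with 4.94 and at least 5.93 elsewhere, and Foxp1) and 1, Lmo4, was above it. Of the 11 Hox genes other than Hoxd10, 2 (Hoxa7 and Hoxb2) were below the range and 0 above, with a median difference of -0.32. The shares below the range were 27.3% of these motor neuron transcription factors and 18.2% of these Hox genes, against 13.1% of all genes. Hoxb13 and Hoxc9, also posterior Hox genes, were 1.08 and 1.00 under the other arrays' median and inside the range. Hoxa10 and Hoxa11, the other posterior genes listed (paralog 9 or higher), differed from it by -0.216 and -0.051, also inside the range. Of these 4 genes 0 were below the range, against 2 of the 7 Hox genes of paralog 8 or lower. The median differences were -0.61 and -0.32. In the second set Hoxa7 and Hoxd3 differed by -1.042 and -0.912.

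**Figure D2:**
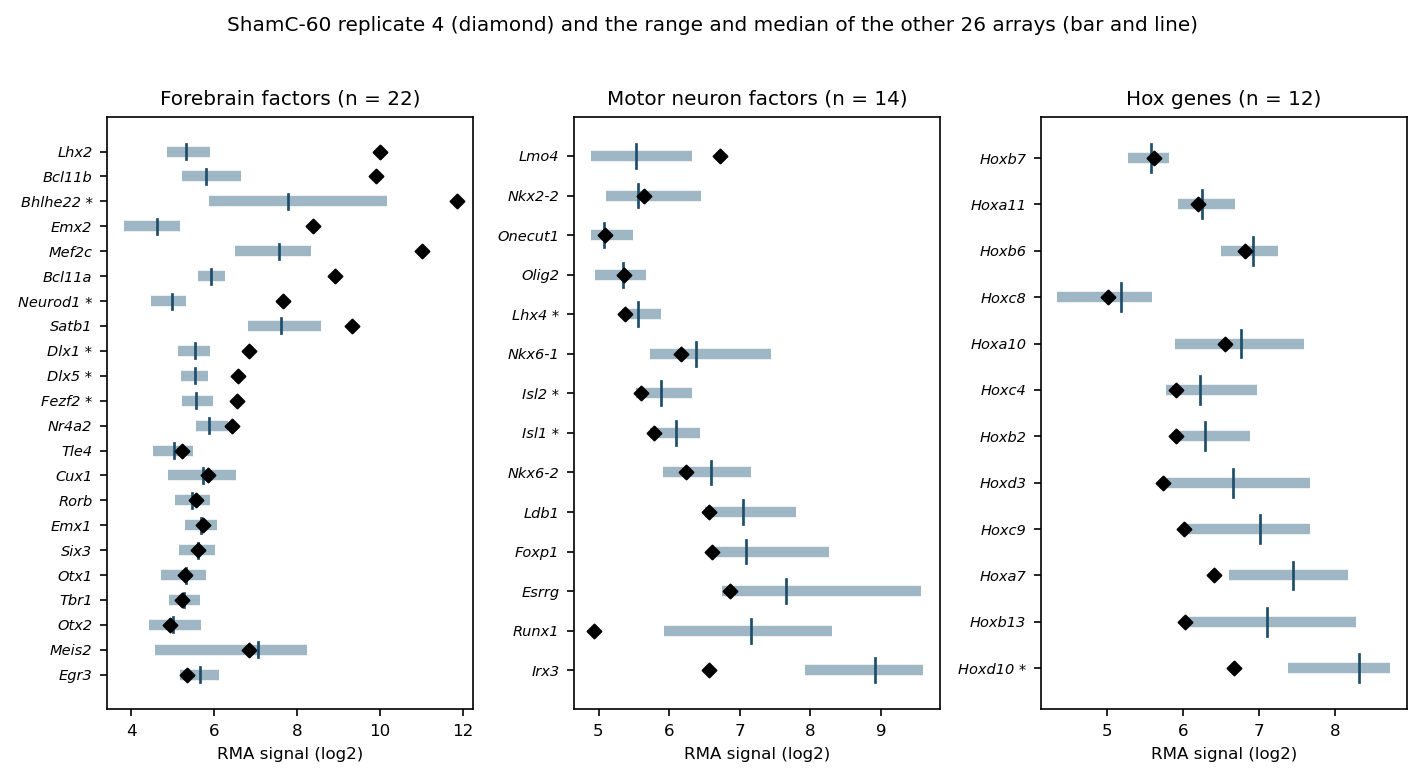
Log2 RMA signal (horizontal axis) of the measured forebrain factors, motor neuron factors and Hox genes in ShamC-60 replicate 4 (diamond), with the range and median of the other 26 arrays (bar and line); an asterisk marks the 9 identity factors. Diamonds of the top 12 forebrain factors lie right of their bars, and Hoxd10, Irx3 and Runx1 lie left of theirs.

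The 10 genes farthest above the other arrays in replicate 4 were Rab40b, Lhx2, Mal2, Aldh3b1, Frzb, Bcl11b, Dkk3, Emx2, Scn3b and Tmem178a, and the 10 farthest below were Anxa2, Prph, Lgals1, Uts2, Rgs3, Sncg, Ifi27l2b, S100a10, Slc16a6 and Hspb1. Of markers of other cells, 2 of 12 astrocyte and 0 of 13 oligodendrocyte genes were above the range, against 12.1% of all genes. Of 13 microglial, 6 vessel and blood and 7 sensory neuron genes, 0 were above it. Below the range were 1 astrocyte, 2 microglial and 1 vessel and blood gene, against 13.1% of all genes. In the astrocyte list Slc1a3 was 11.9 in replicate 4 and at most 9.76 elsewhere, Gja1 was above the range by 0.05, and Aldoc was below it. The astrocyte list averaged 8.78 in replicate 4, inside the 7.38 to 9.06 of the other arrays. In the control probe sets the 3' minus 5' difference was 2.21 for beta-actin and 2.31 for GAPDH. Both were inside the ranges of the other 26 arrays, 1.92 to 3.77 and 0.985 to 3.85. The GAPDH difference was below ShamC-21 (2.65 to 3.26) and the other ShamC-60 arrays (2.40 to 2.92). It was above Spi-21 replicates 5 to 8 (0.985 to 1.46). Its part in the values of replicate 4 was not tested. The motor neuron effector genes of replicate 4 thus go against its label, and it is treated as a library labelled ShamC-60. Where its RNA came from was not tested. In samples of pooled neurons, fewer cells of a type and less RNA per cell cannot be told apart. The fits below leave this array out, and values with it stand beside them.

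The design asks which transcripts differ after transection at each day. At 21 days 1 of the 8 tested genes, Isl2, passed the limma test and rose, and 0 fell. Over all probe sets 24.6% passed, 12% upward and 12.6% downward. Bhlhe22 was lower but was not tested, because its difference was known when the genes were chosen.

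Isl2 had a lowest, median and highest signal of 5.75, 5.96 and 6.32 in Spi-21, against 5.54, 5.77 and 5.81 in ShamC-21. These signals lay around or below the array medians of 6.31 to 6.41, so transcript and background signal cannot be told apart for Isl2. All 8 transected arrays lay above the sham mean and 6 of 8 above every sham array, as at least 6 did for 12.4% of probe sets. The difference was 0.28 ± 0.0987 on the log2 scale (SE, 95% interval 0.08 to 0.48), a 1.21-fold rise (limma, adjusted p = 0.0386). The call ended when any of 7 single arrays was left out (differences of 0.24 to 0.29, highest adjusted p = 0.0977): Spi-21 replicates 1, 2 and 4 and ShamC-21 replicates 1, 2, 4 and 5. It also ended in the fit of the 2 groups alone (limma, adjusted p = 0.0713) and after a second quantile normalization (0.25, adjusted p = 0.0666).

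The higher Isl2 values came from Spi-21 replicates 1 to 4, which lay between 5.96 and 6.32, against 5.75 to 5.97 in replicates 5 to 8. The same arrays differed in the GAPDH 3' minus 5' difference, with 2.57 to 3.47 in the first 4 and 0.985 to 1.46 in the last 4. With replicates 1 to 4 left out the Isl2 difference was 0.12 (limma, adjusted p = 0.467), and with replicates 5 to 8 left out it was 0.44 (adjusted p = 0.00322). The beta-actin 3' minus 5' difference was 2.86 to 3.60 in Spi-21, against 1.97 to 2.65 in ShamC-21. Its part in the result was not tested.

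Isl2 was also higher at 60 days, without passing: 5.64, 6.07 and 6.21 (lowest, median and highest) in Spi-60, against 5.85, 5.84, 5.81 and 5.91 in ShamC-60. Spi-60 exceeded every sham value in 7 of 8 arrays, as at least 7 did for 10.1% of probe sets. The difference was 0.18 ± 0.112 (limma, adjusted p = 0.306), and 0.23 with replicate 4, whose signal of 5.60 lay under all Spi-60 arrays. Spi-60 replicate 4, at 5.64, was the array below the sham values.

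Isl1 and Lhx4 stayed within the spread at both days. Their signals lay around or below the array medians, so transcript and background signal cannot be told apart for them either. Isl1 had 5.83, 6.18 and 6.44 (lowest, median and highest) in Spi-21, against 5.91, 6.07 and 6.25 in ShamC-21, a difference of 0.09 ± 0.0947 (limma, adjusted p = 0.497). In Spi-60 it had 5.73, 6.12 and 6.21, against 6.03, 6.06, 6.12 and 6.33 in ShamC-60, a difference of -0.08 ± 0.107 (adjusted p = 0.691). Lhx4 differed by 0.02 ± 0.0851 at 21 days and 0.07 ± 0.0965 at 60 days (limma, adjusted p = 0.861 and 0.661). For Isl1 the 95% intervals ran from -0.10 to 0.29 at 21 days and from -0.30 to 0.14 at 60 days.

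Hoxd10 had 7.38, 8.29 and 8.59 (lowest, median and highest) in Spi-21, against 7.64, 8.27 and 8.67 in ShamC-21, and the groups overlapped almost wholly. The difference was -0.03 ± 0.158 (limma, adjusted p = 0.896). In Spi-60 it had 8.09, 8.34 and 8.61, against 8.10, 8.73, 8.56 and 8.41 in ShamC-60 without replicate 4, a difference of -0.13 ± 0.179 (adjusted p = 0.691). With replicate 4 the sign turned to 0.23.

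The forebrain factors gave 0 calls among the 4 tested at either day without replicate 4. In these 26 arrays all 4 lay below the array medians of 6.31 to 6.41, with a highest value of 5.98 (Fezf2). Transcript and background signal therefore cannot be told apart for them. At 60 days 0 of the 8 tested genes of both kinds passed in limma and 0 had an unadjusted p under 0.05, while 11.9% of all probe sets passed. Neurod1 had 4.47, 4.96 and 5.32 (lowest, median and highest) in Spi-21, against 4.94, 5.11 and 5.31 in ShamC-21, a difference of -0.23 ± 0.119 (adjusted p = 0.162). At 60 days its difference was 0.07 ± 0.135 (adjusted p = 0.769), and -0.47 with replicate 4.

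Dlx5 was 5.21, 5.41 and 5.69 (lowest, median and highest) in Spi-60, against 5.85, 5.50, 5.54 and 5.74 in ShamC-60. The difference was -0.22 ± 0.109 (limma, adjusted p = 0.194). With replicate 4 it became -0.40 and passed (adjusted p = 0.0338), in a fit where 19.1% of all probe sets passed, so that call rested on 1 array. At 21 days Dlx5 differed by 0.03 ± 0.096 (adjusted p = 0.837).

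Dlx1 differed by -0.07 ± 0.111 at 21 days and -0.13 ± 0.126 at 60 days (limma, adjusted p = 0.697 and 0.521), and by -0.39 at 60 days with replicate 4. Within Spi-21 it split by replicate as the GAPDH controls did: 5.27 to 5.37 in replicates 1 to 4, all below the 5.56 to 5.91 of replicates 5 to 8, as 5.24% of all probe sets did. Fezf2 differed by -0.05 ± 0.0953 at 21 days and 0.13 ± 0.108 at 60 days (adjusted p = 0.748 and 0.457), and by -0.07 at 60 days with replicate 4.

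**Figure D3:**
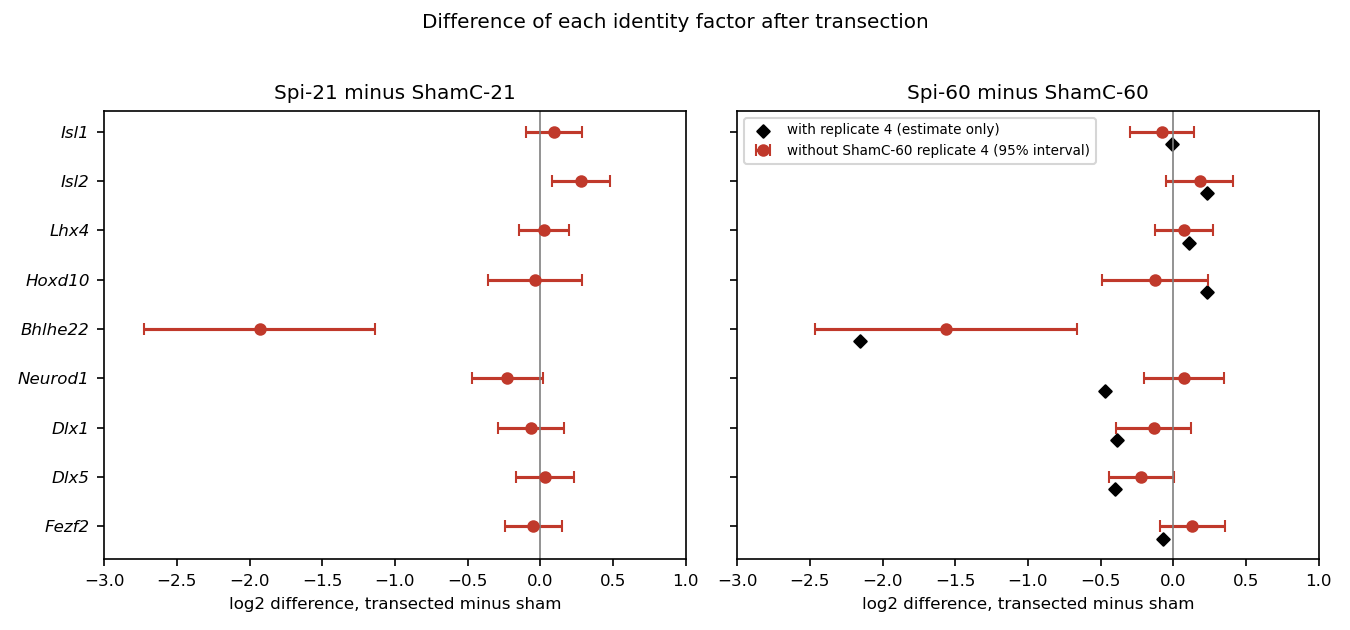
Log2 difference, transected minus sham (horizontal axis), of each identity factor at 21 days (left) and 60 days (right); red points and bars are the limma estimate and its 95% interval without ShamC-60 replicate 4, black diamonds the estimate with it. Isl2 at 21 days has an interval from 0.08 to 0.48, Bhlhe22 (not tested) lies at -1.93 and -1.56, and the diamonds of Neurod1, Hoxd10 and Fezf2 lie on the other side of 0 from their points. The Bhlhe22 bars come from values that chose the gene and are not read as a test.

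Bhlhe22 was the exception among the 9 in size, but its difference chose the gene, so the values are a description and carry no test. It had 5.88, 7.03 and 8.78 (lowest, median and highest) in Spi-21, against 7.81, 9.19 and 10.17 in ShamC-21. All 8 transected arrays lay below the sham mean and 7 of 8 below every sham array; the eighth was Spi-21 replicate 4, at 8.78. At least 7 did so for 5.41% of probe sets. The difference was -1.93 ± 0.388, or 3.81-fold lower.

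At 60 days Bhlhe22 had 6.01, 7.36 and 8.65 (lowest, median and highest) in Spi-60, against 8.86, 8.43, 8.99 and 9.31 in ShamC-60. Again 7 of 8 Spi-60 arrays were under every ShamC-60 value, as at least 7 did for 8.37% of probe sets. The difference was -1.56 ± 0.44, or 2.95-fold lower, and -2.15, or 4.45-fold, with replicate 4. The low values therefore did not rest on that array, although it raised the size. Within Spi-21 the GAPDH split did not divide Bhlhe22: its difference from ShamC-21 was -2.04 over replicates 5 to 8 and -1.83 over replicates 1 to 4. The beta-actin 3' minus 5' difference did separate the operations: 2.86 to 3.60 in Spi-21, against 1.97 to 2.65 in ShamC-21, and 2.76 to 3.77 in Spi-60, against 1.92 to 2.42 in ShamC-60 without replicate 4. Its part in the Bhlhe22 difference was not tested.

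Neurons of the dorsal horn that use Bhlhe22 include inhibitory ones, and 3 inhibitory markers, chosen after their values were seen, are given beside it without a test. Gad1 was lower by 1.62 ± 0.504 on the log2 scale at 21 days, and its difference at 60 days was -0.21. Gad2, the other enzyme that makes GABA, differed by 0.14 at 21 days and 0.10 at 60 days. The vesicular GABA transporter Slc32a1 differed by -0.32 and -0.36. Across the 26 arrays Bhlhe22 correlated with Gad1 at r = 0.611, with Gad2 at r = -0.114 and with Slc32a1 at r = 0.155. The mean of 9 other interneuron transcription factors lay between 5.58 and 5.88 in Spi-21, against 5.50 to 5.74 in ShamC-21, and between 5.63 and 5.77 in Spi-60, against 5.52 to 5.72 in ShamC-60. The ranges overlapped at both days. The part of other cells in the Bhlhe22 difference was not tested.

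By Pearson correlation over the 26 arrays, the genes whose signal varied most like Bhlhe22 were Akap7, a kinase anchoring protein (r = 0.911), Tceal9 (0.882), Mtmr7, a myotubularin-related phosphatase (0.879), Ttc9 (0.871) and Tubb6, a beta-tubulin (0.858). These arrays share the group difference, and with group means taken off the leading r was 0.804, again with Akap7. Akap7 averaged 7.53 in Spi-21 and 8.72 in ShamC-21, and 7.68 in Spi-60 and 8.65 in ShamC-60. In replicate 4 Akap7, at 9.59, was above its highest value in the other arrays (9.36), while Tceal9, Mtmr7, Ttc9 and Tubb6 were inside their ranges.

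**Figure D4:**
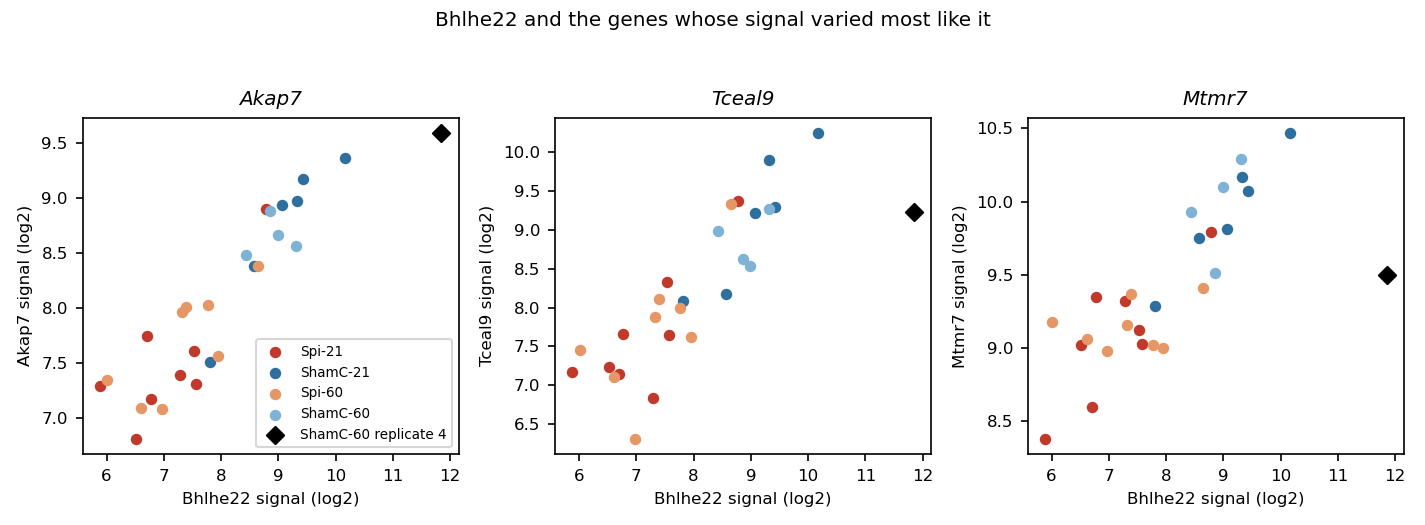
Log2 signal of Bhlhe22 (horizontal axis) against Akap7, Tceal9 and Mtmr7 (vertical axes), 1 point per array, coloured by group, with ShamC-60 replicate 4 as a diamond. Transected arrays lie mostly at the lower left and sham arrays at the upper right, and the diamond lies off the line of the other arrays for Tceal9 and Mtmr7.

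No test between the days passed for these genes. Between Spi-60 and Spi-21, 0 of the 8 tested genes passed in limma and 0 had an unadjusted p under 0.05, where 0.17% of all probe sets passed. Between ShamC-60 and ShamC-21 0 of 8 passed and 0 had an unadjusted p under 0.05; 0% of probe sets passed, and 214 had an unadjusted p under 0.05. The change with transection also passed for 0 of 8 when the days were compared, with 0 at an unadjusted p under 0.05, and for 0% of all probe sets, of which 737 had an unadjusted p under 0.05. Bhlhe22 averaged 7.34 ± 0.82 in Spi-60 and 7.13 ± 0.875 in Spi-21 (SD, n = 8 each). Its transection difference was 0.37 ± 0.586 less negative at 60 days than at 21 days.

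The 9 genes also differed in how much they varied. Over the 26 arrays the SD of Bhlhe22 was 1.15, above that of 99.9% of probe sets, and the SD of Lhx4 was 0.133, above that of 1.65%. Isl1 had an SD of 0.159 and Hoxd10 of 0.297, against a median of 0.255 over all probe sets. Over the 36 pairs of the 9 genes, correlations ran from -0.433 to 0.469 with a median of 0.01 (26 arrays each). Apart from Bhlhe22 and Hoxd10, the 9 genes had signals around or below the array medians. Correlations of such signals cannot show whether the transcripts varied together. The gene most like Hoxd10 was Mapk15 (r = 0.604) and the gene most like Isl2 was Hspb7 (r = 0.763). With group means taken off they were Bcl11b for Hoxd10 (r = 0.668) and Lpin3 for Isl2 (r = 0.807).

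Other factors of the same kinds were read at each day from lists without the 9 genes. Of 11 other motor neuron factors, at 21 days 2 rose and 1 fell, and at 60 days 3 rose and 0 fell, against 24.8% and 12.6% of all genes passing at those days. Ldb1, the cofactor that binds LIM-homeodomain proteins such as Isl1, rose by 0.52 ± 0.128 at 21 days and by 0.68 ± 0.145 at 60 days (limma, adjusted p = 0.00474 and 0.00295). Nkx6-2, a homeodomain factor of the ventral cord that oligodendrocytes also use, rose by 0.51 and 0.53 (adjusted p = 0.00483 and 0.016). Esrrg, an orphan nuclear receptor found in gamma motor neurons of the mouse, rose by 1.00 ± 0.321 at 60 days (adjusted p = 0.0413). Irx3 fell by 0.48 at 21 days (adjusted p = 0.0375), a call that ended with replicate 4 in the fit (adjusted p = 0.219). The median difference of the list was 0.18 at 21 days and -0.02 at 60 days, against 0.01 for all genes at both.

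Glial markers were read at the same days. At 21 days 4 of 12 astrocyte genes rose, Aldoc by 0.92 and Gfap by 1.07 among them. Of 13 oligodendrocyte genes 2 rose (Mbp by 1.08 and Mag by 0.56), and of 13 microglial genes 3 rose. In these lists 0 genes fell. The shares that passed were 33.3%, 15.4% and 23.1%, against 24.8% of all genes in either direction. At 60 days 2 of 12 astrocyte genes rose (Aldoc by 1.13). In limma 0 of 13 oligodendrocyte and 0 of 13 microglial genes passed, with 5 and 2 at an unadjusted p under 0.05. The astrocyte share was 16.7%, against 12.6% of all genes. The astrocyte means lay between 7.93 and 8.67 in Spi-21, against 7.38 to 8.59 in ShamC-21, and between 8.28 and 8.97 in Spi-60, against 7.97 to 9.06 in ShamC-60. The oligodendrocyte means lay between 7.30 and 7.82 in Spi-21, against 6.73 to 8.06 in ShamC-21, and between 7.49 and 8.32 in Spi-60, against 7.24 to 8.79 in ShamC-60. The microglial means lay between 6.05 and 7.61 in Spi-21, against 6.36 to 6.63 in ShamC-21, and between 6.34 and 7.59 in Spi-60, against 6.27 to 6.77 in ShamC-60. The part of glial cells in the rises of the motor neuron factors was not tested.

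Of 17 other forebrain factors, 1 rose and 2 fell at 21 days, and 0 rose and 1 fell at 60 days. These were 17.6% and 5.88% of the list, against 24.8% and 12.6% of all genes passing at those days. For the interneuron factors below the shares were 22.2% and 11.1%, and for the Hox genes below 27.3% and 0%. Meis2, a homeodomain factor of the striatum and of many other neurons, fell by 1.05 ± 0.339 at 21 days and by 1.41 ± 0.385 at 60 days (limma, adjusted p = 0.0249 and 0.0171). Bcl11b fell by 0.40 at 21 days (adjusted p = 0.031, and 0.471 with replicate 4), and Egr3, an activity-regulated factor, rose by 0.34 (adjusted p = 0.0223). Of 9 other interneuron factors, Pax8 and Gata2 rose at 21 days and Pax8 at 60 days, and 0 fell. Of the 11 other Hox genes, Hoxa7 rose and Hoxb6 and Hoxc9 fell at 21 days, and the calls of Hoxa7 and Hoxc9 ended with replicate 4 in the fit (limma, adjusted p = 0.0504 and 0.0727). At 60 days 0 of the 11 passed in limma and 1 had an unadjusted p under 0.05.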

How the data were processed

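Affymetrix rat arrays of 27 samples were used. The deposited values are log2 signals per probe set, made by the authors with RMA per the submitters' processing notes. RMA corrects for background, brings arrays to a common distribution and combines the probes of each set. The version used, and why these probe sets were kept, are not stated in the sources used here. The submitters' columns were matched to samples by name.

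Gene names came from the platform annotation: of 12913 tested probe sets 11880 had 1 symbol, 320 several and 713 none, and 6 control probe sets were left out. For gene lists, the probe set with the highest mean stood for a gene. Differences were fitted with limma 3.58.1 in R 4.3.3 (lmFit and eBayes, 4 groups, 26 arrays without ShamC-60 replicate 4, and again with all 27), with two-sided p-values adjusted by Benjamini-Hochberg over all 12913 probe sets and called under 0.05. The ± after a difference is the standard error. Arrays have no count depth, so their number limits the precision. The fit was tested on simulated data. Tables and plots were made in Python 3.11.15.

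The members and lists were chosen with earlier results of these data known. Bhlhe22 was given no p for that reason. Named beyond the 9 genes are the 10 per direction farthest outside the other arrays in ShamC-60 replicate 4, up to 8 per list there, up to 4 called per list and contrast, the 5 genes most correlated, and Gad1, Gad2 and Slc32a1 as inhibitory markers, chosen after their values were seen. Alternatives were all 27 arrays, other left-out arrays, a signal filter, a trend, array weights, a second quantile normalization, a replicate block and fits of 2 groups alone. Replicate numbers are shared between groups, but the deviations of same-numbered arrays correlated between -0.354 and 0.329 over 10 pairs, so the numbers were not taken as pairs.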

Additional observations from a re-analysis of the deposited data

Results flagged for a closer look

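Values of the 9 genes were searched for single arrays far from the rest of their group, by Dixon's gap test in 36 groups of 5 to 8 arrays. Chance flags about 1 in 20 groups, but 3 of the 4 values below were among those that chose the genes, so the number found is not read against that rate. In the array labelled ShamC-60 replicate 4, Bhlhe22 was 11.85 with the next array of its group at 9.31, Neurod1 was 7.66 with the next at 5.32, and Fezf2 was 6.55 with the next at 5.70. Dlx1, Dlx5 and Hoxd10 were also outside the other arrays there and did not pass this gap test with 5 arrays. Hoxd10 was 7.38 in Spi-21 replicate 5, the lowest of 8, with the next array at 8.16. That array is one of those with a low GAPDH 3' minus 5' difference.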

How the results depend on the processing

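Of 634 results for single genes under alternatives, 607 stayed the same, 10 lost the call, 1 gained it and 16 turned sign, none of the last past the threshold. For the 8 tested genes, the same means that direction and side of the threshold were kept. For Bhlhe22, which has no p, it means the same direction and a shift smaller than the within-group spread. Leaving out an array of the other day cannot change a difference, only its p. Many of the 607 could therefore not turn sign. The count of the 9 genes called at 21 days was 1, from Isl2, and 0 with a second quantile normalization (Isl2 0.25, limma adjusted p = 0.0666), in the fit of 2 groups alone (adjusted p = 0.0713), with Spi-21 replicates 1 to 4 left out, and among probe sets above the median signal, where Isl2 was not tested. It was 0 to 1 with single arrays left out. At 60 days the count was 0, and 1 (Dlx5) with all 27 arrays. In replicate 4, 3059 probe sets lay outside the other 26 arrays and 5150 outside the 10 other sham arrays, where 7 of the 9 genes did. Signs turned at 21 days for Lhx4 (-0.0061 after quantile normalization, -0.006 without Spi-21 replicates 1 to 4, -0.0047 to 0.0621 with single arrays left out), Hoxd10 (0.0697 after quantile normalization, 0.0493 without Spi-21 replicates 5 to 8, -0.158 to 0.086 with single arrays left out), Dlx1 (0.122 without Spi-21 replicates 1 to 4) and Dlx5 (-0.002 after quantile normalization). At 60 days they turned for Lhx4 (-0.0125 with array weights), for Hoxd10 (0.229), Neurod1 (-0.468) and Fezf2 (-0.0676) with all 27 arrays, and for Neurod1 with single arrays left out (-0.0107 to 0.193). The cause was not tested. The calls over all probe sets at 60 days were 1538, and 2463 with all 27 arrays, 2834 with array weights and 797 without ShamC-60 replicates 1 and 4. At 21 days they were 3177 of 12913, and 2022 of the 6456 above the median signal, 1595 without Spi-21 replicates 1 to 4 and 4240 without replicates 5 to 8. Leaving out Spi-21 replicates 1 to 4 or 5 to 8 was chosen after seeing the data.

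With the replicate number as a block, the counts of the 9 genes called stayed at 1 and 0, the Bhlhe22 difference was -1.96 at 21 days and -1.74 at 60 days, and the probe sets called were 3386 and 2114.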

Other observations

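Another sham array, ShamC-60 replicate 1, had 50 probe sets more than 1 log2 unit above all other arrays, the next highest number after replicate 4 with 165. Of the 9 genes it held 1 at an extreme, Lhx4 at its lowest (5.33).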
